A study of Homo sapiens with 60 samples.

Results

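Expression of 8 target genes of YAP and TEAD was followed in A549, a human lung carcinoma cell line long in culture, after 24 h with vehicle or with an extract of a medicinal herb or herbal formula. The members were taken by name from the deposited count table: CCN1, CCN2, ANKRD1, AMOTL2, AXL, CRIM1, LATS2 and AJUBA. These are 8 of the 60675 genes in the table. All 8 were among the 18396 genes that passed the filter on low counts and were tested.

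YAP and its relative TAZ (gene WWTR1) are transcriptional coactivators that do not bind DNA themselves and act mainly through the TEAD transcription factors. The Hippo kinases, MST1 and MST2 (genes STK4 and STK3) followed by LATS1 and LATS2, phosphorylate YAP and TAZ, which keeps them in the cytoplasm. Cell spreading, actin tension, cell density and serum factors set how much of both proteins reaches the nucleus, and in lung epithelium the pathway is known for its part in repair and in carcinoma growth. CCN1, CCN2 and ANKRD1 are the targets used most often as a readout, while AMOTL2, LATS2 and AJUBA are targets that also act back on the pathway.

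The vehicle group held 3 libraries treated with DMSO, for which the labels give 0.1% and the series text 2%. Polygalae Radix was given at 380 (high), 76 (medium) and 15.2 µg/mL (low), and Aucklandiae Radix at 370, 74 and 14.8 µg/mL, with n = 2 libraries at each dose. The series text ties the top dose of such extracts to their own inhibitory concentration, and says that some samples with little RNA were left out. The doses of the other 6 extracts were 500, 100 and 20 µg/mL. Guibi-tang, Saengmaek-san, Menthae Herba and Saposhnikoviae Radix had n = 3 libraries per dose, Soyo-san had n = 2 and Okbyeongpung-san had n = 1. All are ethanol extracts, of multi-herb formulas for Guibi-tang, Saengmaek-san, Soyo-san and Okbyeongpung-san and of single herbs for the others, and every group used the same cell line without genetic change. The labels do not say whether libraries of a group came from separate cultures, so a p-value here stands against the spread of these libraries only, which may be technical.

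Total expected counts ran from 17113963 to 33363661 per library. The titles put all 60 libraries in 1 batch, D. Library sets were read from the first part of the library names, and the labels do not say what that part marks. The vehicle libraries have a first part of their own, so a difference from vehicle and a difference between library sets cannot be told apart. Within the treated libraries, Polygalae and Aucklandiae Radix share a set, as do Menthae Herba and Saposhnikoviae Radix, Saengmaek-san and Guibi-tang, and Soyo-san and Okbyeongpung-san. A further split into 2 classes, for which there is no label, was seen in the level of 1 gene without a symbol (ENSG00000282955), at 3.5 CPM or less in 38 libraries (class 1) and at 17.6 CPM or more in 22 (class 2). All 3 vehicle libraries and all of Soyo-san and Okbyeongpung-san were of class 2, all of Aucklandiae Radix and Menthae Herba were of class 1, and 9 groups held both. The summed mitochondrial mRNAs parted the same way, at 43620 to 72913 CPM in class 1 and 73405 to 145950 CPM in class 2. Epithelial markers were present as the label asks, with a summed level of 6532 to 6890 CPM in vehicle, 847 to 984 CPM in Polygalae Radix high and 3881 to 4846 CPM in Guibi-tang high. Most of the sum was KRT8 and KRT18 (3647 to 3850 and 2818 to 2968 CPM in vehicle). EPCAM was at 4.62 to 5.06 and CLDN7 at 1.21 to 1.42 CPM in vehicle. Among leukocyte markers, CD3E was at 0 in all 60 libraries and PTPRC reached at most 0.0415 CPM, while CD14 was present in every library at 0.152 to 6.00 CPM (2.42 to 2.47 in vehicle). CD14 fell in Polygalae Radix high (-3.12 ± 0.27) and rose in Aucklandiae Radix high (1.21 ± 0.17), and its part in the results there was not tested. The 3 endothelial markers together reached at most 0.368 CPM. COL1A1, a fibroblast marker, was present at 10.9 to 39.7 CPM while DCN reached at most 0.0918 CPM. In such bulk samples a lower level in each cell and fewer cells that express the gene cannot be told apart.

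Promoters were searched for letters that TEAD factors are known to bind, but CCN1 and CRIM1 had no window and were not searched. RefSeq windows (GRCh38.p14, 250 bases before to 50 after each start) were given for 6 of the 8 members, in 9 windows. They were searched for GGAATG, the core letters that TEAD factors are known to bind, on both strands (CATTCC on the other). Of all 35116 windows of 300 bases, 14.0% held at least 1 match and 0.128% held 3 or more. Each of the 6 members had at least 1 window with a match, and 3 of their 9 windows had none. The window of CCN2 held 3 matches, which begin at positions -169, -104 and -95 from the start. None of the 3 overlaps another. The part of the window upstream of the gene is shown because it carries the most matches among these 6 members. It lies at chr6:131951374-131951622 on the minus strand and is written 5′ to 3′ with the matches in capitals.
CCN2 promoter: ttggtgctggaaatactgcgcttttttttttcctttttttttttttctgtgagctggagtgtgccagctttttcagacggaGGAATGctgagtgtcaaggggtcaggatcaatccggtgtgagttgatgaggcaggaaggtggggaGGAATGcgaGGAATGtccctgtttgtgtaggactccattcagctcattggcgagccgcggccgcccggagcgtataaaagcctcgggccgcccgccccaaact
The window of ANKRD1 held 2 matches, at -220 and -128 from the start, and AMOTL2 and AXL each held 1 on the other strand, at -69 and -212 from a second start. Their surroundings are shown, with the match in capitals, because these 3 genes carry the largest and the most widespread changes below. They lie at chr10:90921290-90921319, chr10:90921198-90921227, chr3:134374499-134374528 and chr19:41226531-41226560.
ANKRD1, distal match: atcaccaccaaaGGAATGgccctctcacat
ANKRD1, proximal match: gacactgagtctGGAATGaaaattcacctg
AMOTL2, second start: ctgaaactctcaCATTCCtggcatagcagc
AXL, second start: cagactttgcacCATTCCactccctccgct
LATS2 held 1 match just after its start and AJUBA 1 match at -59 from a second start. A match describes these letters and does not show that a factor binds there.

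In vehicle the members differed widely in level. Per kilobase of exon, CRIM1 stood highest at 77.5 ± 1.39 CPM (SD, n = 3), followed by AXL at 49.2 ± 0.709. AMOTL2 at 20.0 ± 0.708 and AJUBA at 18.8 ± 0.911 per kilobase were neighbours whose spreads touched, as were CCN2 at 15.5 ± 0.514 and CCN1 at 14.7 ± 0.762. ANKRD1 at 7.53 ± 0.436 and LATS2 at 6.74 ± 0.355 per kilobase were lowest, and their spreads just met. All levels below are CPM of the whole gene, scaled by the normalised library total, and are compared only within a gene.

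Nearly every treated library held less of these mRNAs than vehicle did. CCN2, AMOTL2 and AXL lay below all 3 vehicle libraries in 57 of 57 treated libraries, whichever extract and dose. Across all tested genes, 0.435% (80 genes) had every treated library below every vehicle library. ANKRD1 was below in 56 of 57 treated libraries, CCN1 in 53, LATS2 in 52, CRIM1 in 49 and AJUBA in 48. Libraries above the vehicle range were few: 1 for CCN1 (Aucklandiae Radix high), 1 for CRIM1 (Saengmaek-san low), 3 for LATS2 (Polygalae Radix) and 4 for AJUBA (Menthae Herba). Among the 19 treated libraries of class 2, the class of the vehicle, CCN2, ANKRD1, AMOTL2, AXL and AJUBA were below the vehicle range in all 19, as were 3.01% of all tested genes. Set and treatment are not separated by these counts, since no vehicle library shares a set with a treated one.

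**Figure D1:**
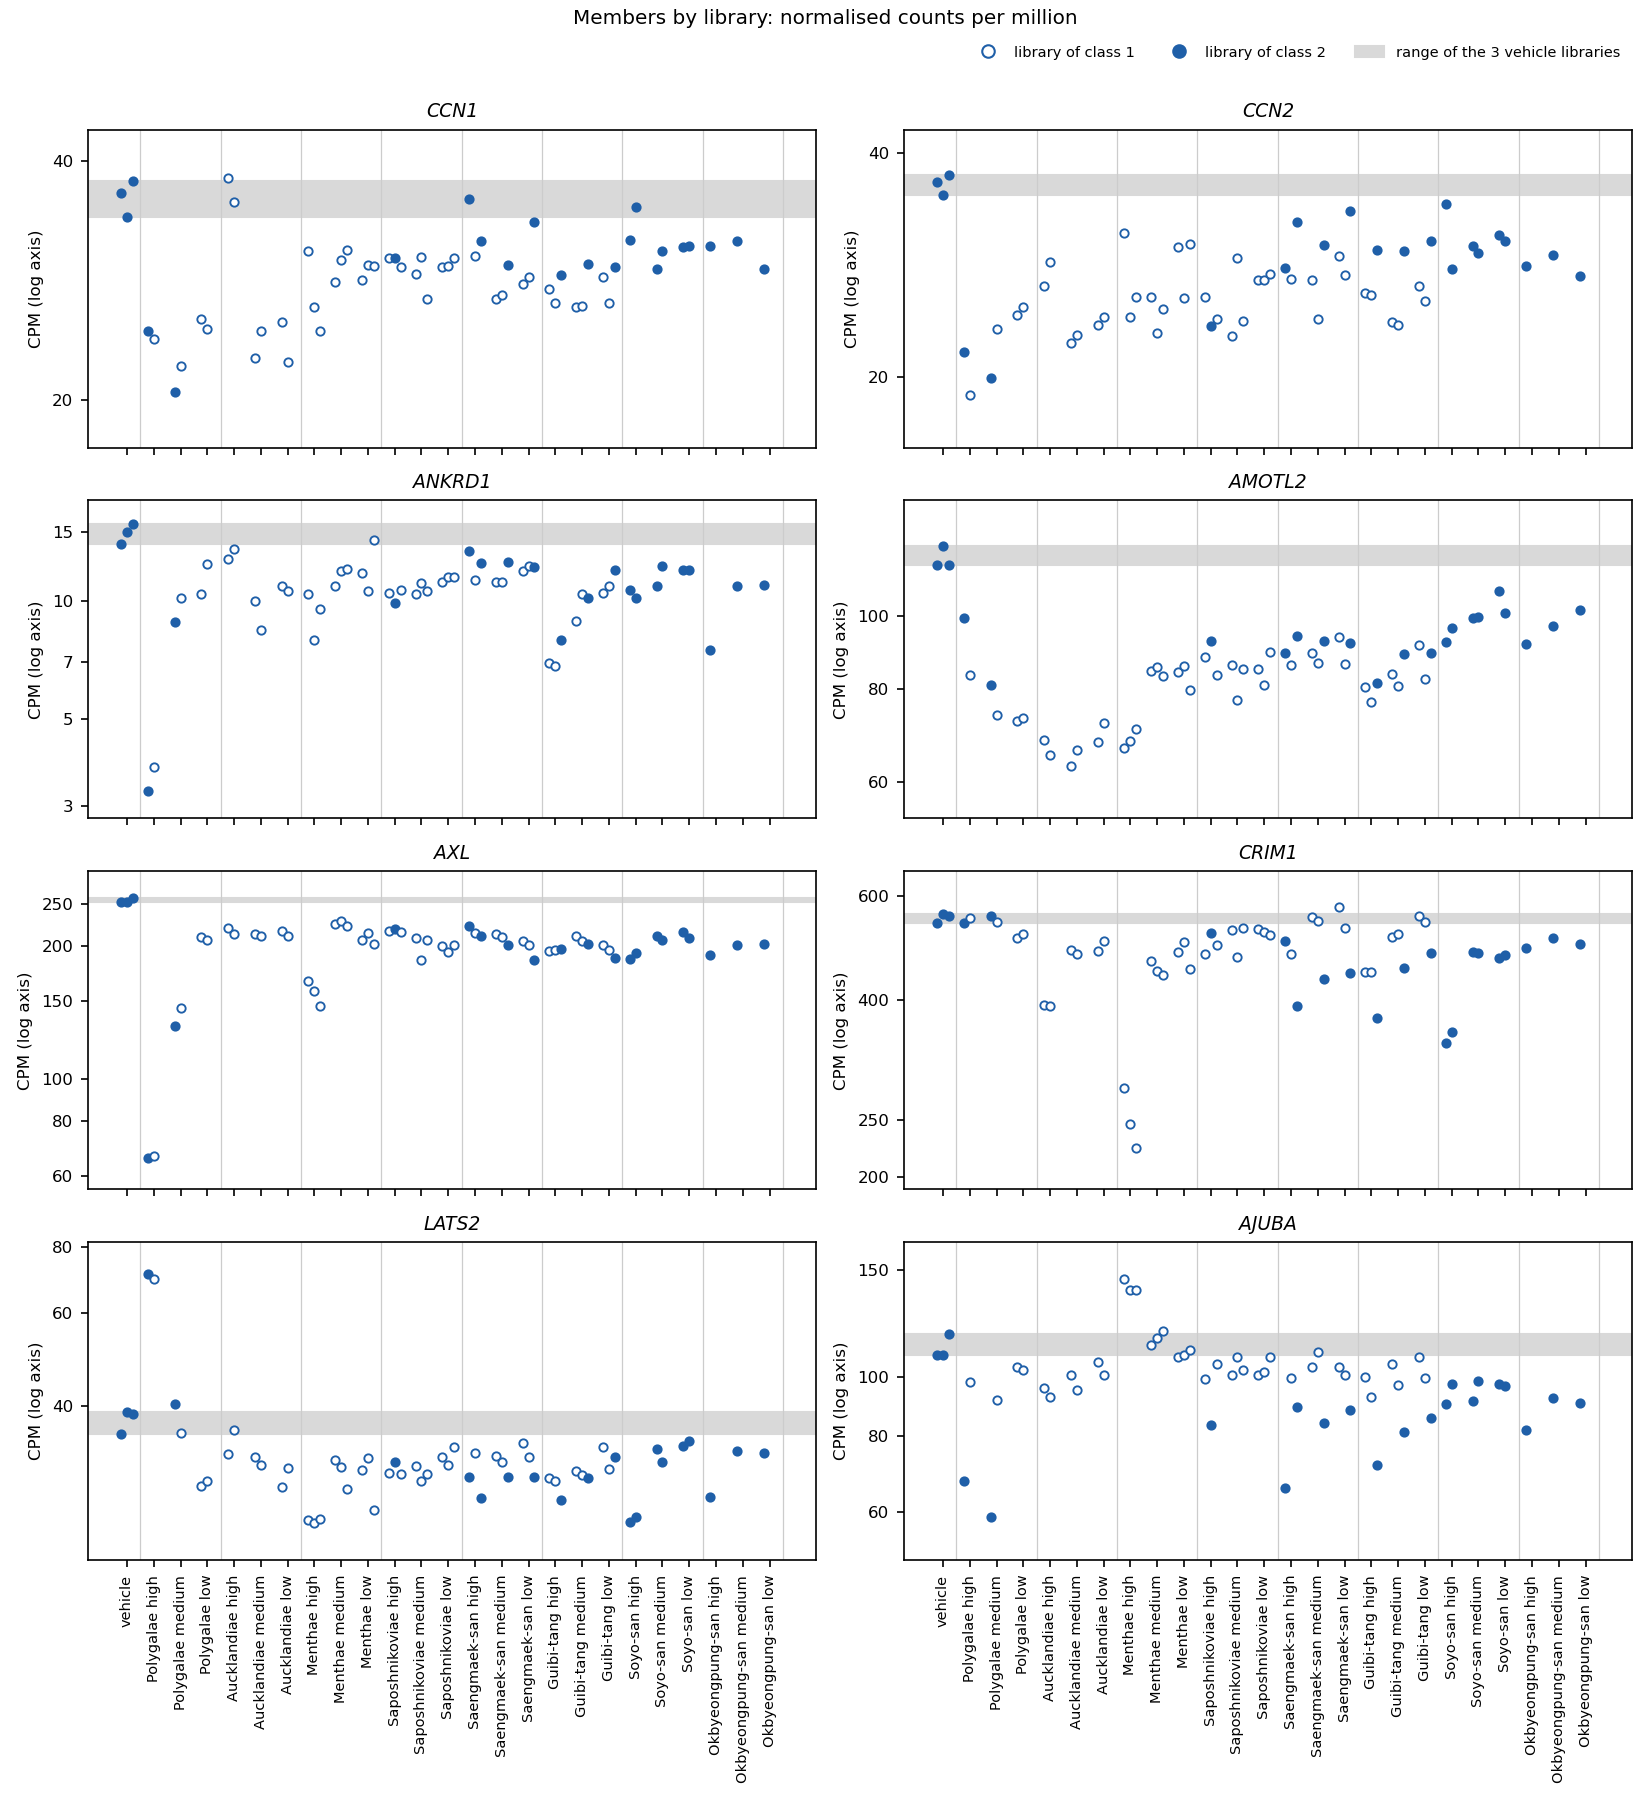
CPM of each member in each of the 60 libraries on a log axis, by extract and dose, with open circles for class 1, filled circles for class 2 and a grey band for the range of the 3 vehicle libraries. The band holds no treated library for CCN2, AMOTL2 and AXL, Polygalae Radix high stands lowest for ANKRD1 and AXL and highest for LATS2, and Menthae Herba high stands lowest for CRIM1.

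The first question was which members changed at each dose against vehicle. With edgeR's quasi-likelihood test and Benjamini-Hochberg adjustment over all 18396 genes, 38 of the 56 tests of a member at the high dose passed an adjusted p of 0.05, 37 lower and 1 higher. In Polygalae Radix 6 members fell and 1 rose, where 29.5% of all genes fell and 30.0% rose. In Aucklandiae Radix 4 fell (17.1% of all genes fell), in Menthae Herba 7 (14.9%) and in Soyo-san 5 (15.5%). The mitochondrial mRNAs, at 89413 to 93086 CPM summed in vehicle, had 4 of 13 called lower in Aucklandiae Radix (43620 to 48787 CPM) and 7 of 13 in Menthae Herba (44896 to 52785 CPM), both with a median log2 fold change of -1.06. In Polygalae Radix high 0 of 13 were called by edgeR, with 0 unadjusted p under 0.05 and 0 calls by DESeq2, and the sum was 47683 CPM in 1 library and 124519 in the other. The part of these mRNAs in the members' results was not tested. In the extracts with fewer changed genes the lower members were 7 in Guibi-tang (4.96% of all genes fell), 5 in Saposhnikoviae Radix (0.381%) and 3 in Saengmaek-san (1.73%). The median log2 fold change of the 8 members lay between -0.66 in Menthae Herba and -0.24 in Aucklandiae Radix, while the median over all genes lay between 0.00 and 0.05 in size. These comparisons share the 3 vehicle libraries, so they are not independent of each other.

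At the medium dose 36 of 56 tests passed, all of them lower. By extract, 6 members fell in Polygalae Radix (9.57% of all genes fell), 6 in Aucklandiae Radix (2.55%), 7 in Menthae Herba (2.57%), 6 in Saposhnikoviae Radix (3.21%), 4 in Saengmaek-san (0.196%), 6 in Guibi-tang (0.294%) and 1 in Soyo-san (0.0272%). In Guibi-tang medium these 6 were among only 54 genes that fell in the whole table, and in Saengmaek-san medium the 4 were among 36. In Guibi-tang medium CCN1 lost its call without any 1 of 2 libraries, and CCN2 and LATS2 without any 1 of 3 (edgeR adjusted p up to 0.0564, 0.0866 and 0.101). In Saengmaek-san medium CCN1 lost its call without any 1 of 4 libraries and CCN2 without any 1 of 5 (up to 0.0856 and 0.203). The other calls in these groups were kept without each library in turn. In Menthae Herba medium CCN1, ANKRD1, AXL, CRIM1 and LATS2 each lost their call without 1 or more single libraries. Their edgeR adjusted p then went up to 0.11, 0.103, 0.104, 0.14 and 0.0513, and CCN2 and AMOTL2 kept their calls. At the low dose 32 of 56 tests passed, again all lower: 6 members in Polygalae Radix (2.75% of all genes fell), 6 in Aucklandiae Radix (3.27%), 6 in Menthae Herba (5.58%), 6 in Saposhnikoviae Radix (1.75%), 2 in Saengmaek-san (0.207%), 4 in Guibi-tang (0.103%) and 2 in Soyo-san (5.18%). In Guibi-tang low, 20 µg/mL, CCN1, ANKRD1, AMOTL2 and AXL were 4 of the 19 genes that fell. Of these, CCN1 lost its call without any 1 of 4 libraries and ANKRD1 without any 1 of 5 (adjusted p up to 0.21 and 0.225). Over all extracts, 4 of the 38 calls at the high, 14 of the 36 at the medium and 18 of the 32 at the low dose were lost when at least 1 single library was left out.

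**Figure D2:**
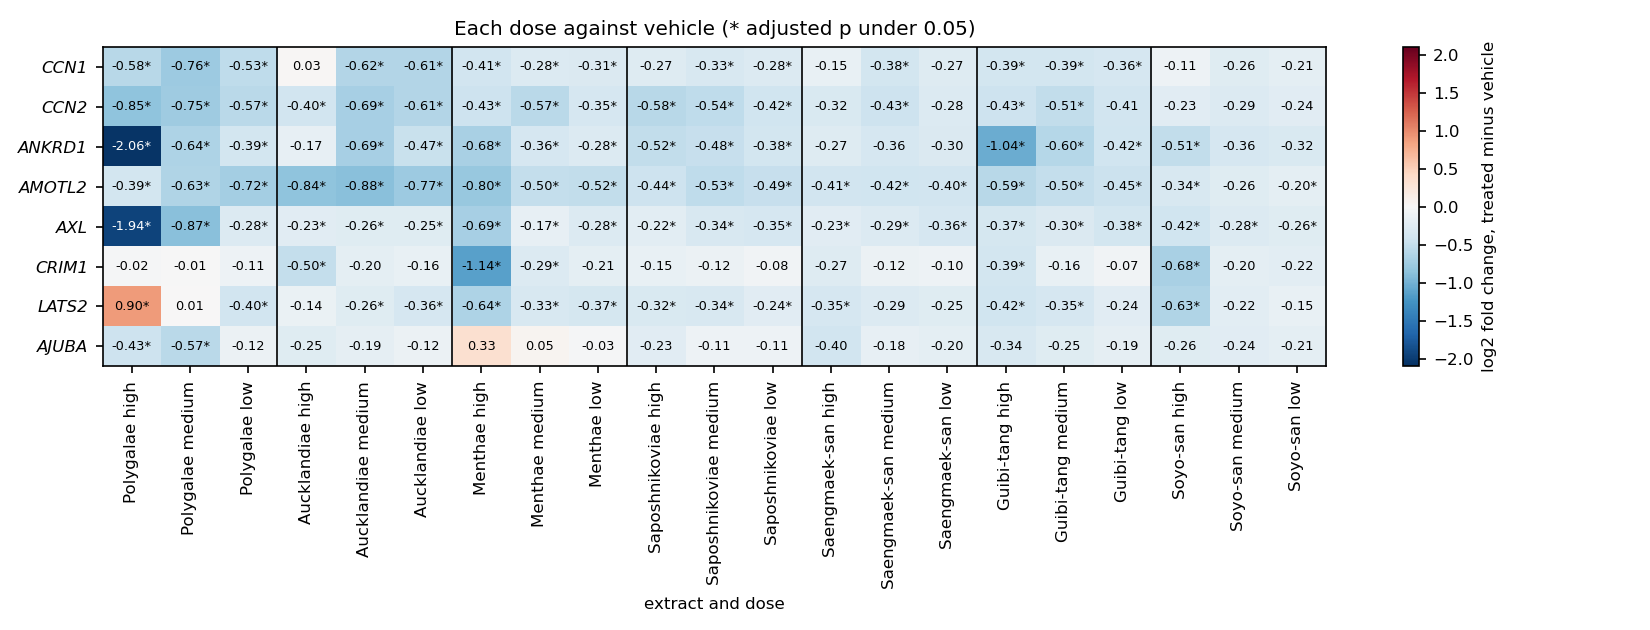
Log2 fold change of each member (rows) in each of 7 extracts at 3 doses against vehicle (columns), blue for lower and red for higher, with a star where edgeR's adjusted p was under 0.05. AMOTL2 and AXL are starred at the high and low dose of all 7 extracts, and the 1 starred red cell is LATS2 in Polygalae Radix high.

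CCN1 and CCN2 are secreted matricellular proteins that bind integrins and growth factors. CCN1 (older symbol CYR61) lies on chromosome 1 at 85580761 to 85583962 on the plus strand and CCN2 (older symbol CTGF) on chromosome 6 at 131948176 to 131951373 on the minus strand (GRCh38, GENCODE 29). CCN1 was 36.4, 34.0 and 37.7 CPM in vehicle, and CCN2 was 36.6, 35.1 and 37.4 CPM. In Polygalae Radix high the 2 libraries held 24.4 and 23.9 CPM of CCN1 and 21.6 and 18.9 CPM of CCN2. Both lay clear of vehicle, with log2 fold changes of -0.58 ± 0.08 (SE, adjusted p = 1.08e-07) and -0.85 ± 0.12 (adjusted p = 3.53e-08). CCN1 was no lower at 380 than at 76 µg/mL of Polygalae Radix, where it held 20.5 and 22.1 CPM, its lowest values in the series.

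Aucklandiae Radix parted the pair. At 74 and 14.8 µg/mL both genes fell, CCN1 by 0.62 and 0.61 and CCN2 by 0.69 and 0.61 on the log2 scale. At 370 µg/mL CCN1 held 38.1 and 35.5 CPM, inside or just above the vehicle range, with a log2 difference of 0.03 ± 0.08 (adjusted p = 0.816). CCN2 stayed below vehicle there at 26.5 and 28.5 CPM (-0.40 ± 0.11, adjusted p = 0.00469), a call that was lost without replicate 2 of that dose (-0.35, adjusted p = 0.0778) and with library class as a covariate (-0.24, adjusted p = 0.0696). Over all extracts, CCN1 fell in 3 of 7 high-dose, 6 of 7 medium-dose and 5 of 7 low-dose comparisons, and CCN2 in 5, 6 and 4. All 4 low-dose calls of CCN2, the one in Aucklandiae Radix (adjusted p = 0.0952 without replicate 2) among them, were lost without 1 or more single libraries.

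ANKRD1 encodes a nuclear ankyrin-repeat protein, known from stretched muscle and injured epithelium, and is among the most responsive YAP targets. It lies on chromosome 10 at 90912096 to 90921276 on the minus strand. Vehicle libraries held 14.0, 15.0 and 15.7 CPM. The 2 Polygalae Radix high libraries held 3.29 and 3.78 CPM, the lowest of all 60, which is 4.18-fold below vehicle (log2 fold change -2.06 ± 0.12, adjusted p = 1.26e-18). At the medium dose of Polygalae Radix they held 8.87 and 10.2 CPM and at the low dose 10.4 and 12.4 CPM, and no dose overlapped another.

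Guibi-tang high came next for ANKRD1, with 6.95, 6.82 and 7.98 CPM, 2.06-fold below vehicle (-1.04 ± 0.10, adjusted p = 3.09e-10). Its medium dose held 8.92, 10.4 and 10.2 CPM and its low dose 10.5, 10.9 and 12.0 CPM. In Menthae Herba high ANKRD1 fell to 10.4, 7.95 and 9.55 CPM (-0.68 ± 0.09, adjusted p = 2.8e-07). The other tested high doses were closer to vehicle: -0.52 in Saposhnikoviae Radix and -0.51 in Soyo-san passed the test, while -0.27 in Saengmaek-san and -0.17 in Aucklandiae Radix did not. ANKRD1 fell in 5 of 7 comparisons at each dose, and 0, 1 and 5 of these calls at the high, medium and low dose were lost without 1 or more single libraries.

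AMOTL2, LATS2 and AJUBA are the targets that feed back on the pathway. AMOTL2 is an angiomotin, which binds YAP at junctions and actin; it lies on chromosome 3 at 134355874 to 134375479 on the minus strand. Vehicle held 117, 124 and 117 CPM. AMOTL2 fell at the high and low dose of all 7 extracts and in 6 of 7 at the medium dose, the exception being Soyo-san (-0.26 ± 0.07, adjusted p = 0.0883). The low-dose call in Soyo-san was lost without any 1 of 5 libraries (adjusted p from 0.0679 to 0.288). Its lowest levels were in Aucklandiae Radix, with 68.3 and 65.3 CPM at 370, 63.2 and 66.3 CPM at 74 and 68.0 and 71.9 CPM at 14.8 µg/mL. Those 3 doses gave -0.84 ± 0.07, -0.88 ± 0.07 and -0.77 ± 0.07, and the high and low dose differed by -0.07 ± 0.07 (adjusted p = 0.606). Menthae Herba high was as low, with 66.7, 68.2 and 70.7 CPM (-0.80 ± 0.06, adjusted p = 1e-14).

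Polygalae Radix ran the other way for AMOTL2. Its high dose held 99.3 and 83.4 CPM, its medium dose 80.8 and 73.8 CPM and its low dose 72.4 and 73.2 CPM. All 3 were below vehicle, and the decrease was smallest at the highest dose (-0.39, -0.63 and -0.72 from high to low). AMOTL2 was also higher in class 2 than in class 1 libraries in 9 of 9 groups that held both, with a median log2 difference of 0.09. The replicate 2 library of Polygalae Radix high, at 99.3 CPM, is of class 2.

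LATS2, a kinase that phosphorylates YAP and TAZ, was the 1 member that rose. It lies on chromosome 13 at 20973032 to 21061547 on the minus strand. Vehicle held 35.3, 38.9 and 38.6 CPM. Polygalae Radix high held 71.2 and 69.7 CPM, 1.87-fold above vehicle (0.90 ± 0.08, adjusted p = 7.59e-14) and far from any other group. The medium dose held 40.2 and 35.5 CPM, close to vehicle (0.01 ± 0.08), and the low dose held 28.1 and 28.8 CPM, below it (-0.40 ± 0.08, adjusted p = 0.00226, and 0.0748 without replicate 2). Within this extract LATS2 went from below vehicle at the low dose to above it at the high dose, and the 3 doses did not overlap.

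Elsewhere LATS2 fell or did not pass. It was lowest in Menthae Herba high, at 24.2, 23.9 and 24.3 CPM (-0.64 ± 0.07, adjusted p = 1.43e-09), and in Soyo-san high, at 24.0 and 24.6 CPM (-0.63 ± 0.08, adjusted p = 4.51e-07). It fell in 5 of 7 high-dose comparisons, in 4 at the medium and 4 at the low dose. The change in Saposhnikoviae Radix high (-0.32, adjusted p = 0.0158) was lost without any 1 of 4 libraries, with adjusted p from 0.0716 to 0.114.

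AJUBA, a LIM-domain scaffold that binds and restrains LATS kinases, differed most between library classes. It lies on chromosome 14 at 22971174 to 22982642 on the minus strand, and vehicle held 109, 109 and 118 CPM. In 9 of 9 groups with both classes the class 2 libraries were lower, by a median of 0.34 and at most 0.64 on the log2 scale. In Polygalae Radix high, for example, the class 2 library held 67.6 and the class 1 library 98.1 CPM. Without a term for class AJUBA fell only in Polygalae Radix high (-0.43 ± 0.15, adjusted p = 0.0112), lost without replicate 2 of that dose (-0.20, adjusted p = 0.35), and in its medium dose (-0.57 ± 0.15, adjusted p = 0.00537). The medium dose held 58.9 CPM in its class 2 library, replicate 2, and 91.8 CPM in its class 1 library, and its call was lost without replicate 2 (-0.29, adjusted p = 0.274). Without replicate 3 the differences were -0.75 at the high and -0.93 at the medium dose, and with only the compared groups in the fit neither call was made (adjusted p = 0.0553 and 0.132). With class as a covariate AJUBA fell in 6 of 7 high-dose, 6 of 7 medium-dose and 7 of 7 low-dose comparisons. Those estimates ran from -0.64 to -0.03 at the high, -0.78 to -0.24 at the medium and -0.48 to -0.21 at the low dose, and whether class bears on the comparison with vehicle was not tested.

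Menthae Herba high was the 1 group in which every library lay above the vehicle range for AJUBA, at 145, 139 and 139 CPM. Its log2 difference was 0.33 ± 0.13 (adjusted p = 0.0519), and -0.03 ± 0.07 (adjusted p = 0.784) with class as a covariate. These libraries are of class 1 and those of vehicle of class 2. Against its own low dose, which is also of class 1, AJUBA differed by 0.36 ± 0.13 (adjusted p = 0.0508, and 3.77e-05 with the class term).

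AXL and CRIM1 are the membrane proteins among the members. AXL is a receptor tyrosine kinase of the TAM family, tied to invasion and drug tolerance in lung carcinoma, and lies on chromosome 19 at 41219203 to 41261766 on the plus strand. Vehicle held 252, 252 and 258 CPM, and the treated libraries ran from 65.8 to 229 CPM with a median of 206. Polygalae Radix high held 65.8 and 66.5 CPM, 3.84-fold below vehicle (-1.94 ± 0.06, adjusted p = 6.39e-29). The decrease was graded: 132 and 145 CPM at the medium dose (-0.87 ± 0.05) and 210 and 207 CPM at the low dose (-0.28 ± 0.05). No 2 of these doses overlapped.

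Outside Polygalae Radix, Menthae Herba high was the lowest group for AXL, with 167, 158 and 146 CPM (-0.69 ± 0.05, adjusted p = 2.08e-15). In the other 5 tested extracts AXL fell at the high dose by 0.22 to 0.42 on the log2 scale, and it passed the test in all 7 at each of the 3 doses. With no filter on low counts 3 of the 7 calls were lost at each dose, at the high dose those in Aucklandiae Radix (adjusted p = 0.0749), Saposhnikoviae Radix (0.184) and Saengmaek-san (0.105), with log2 differences of -0.23, -0.22 and -0.24. Without 1 or more single libraries 1 of the 7 calls was lost at the high, 3 at the medium and 3 at the low dose. The high-dose call so lost was in Saposhnikoviae Radix (-0.22 ± 0.05, adjusted p = 0.00875), without vehicle replicate 3 or its own replicate 1 (0.0704 and 0.0702).

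CRIM1, a membrane protein that binds bone morphogenetic proteins, changed mainly at the high dose. It lies on chromosome 2 at 36355926 to 36551135 on the plus strand. Vehicle held 541, 560 and 556 CPM. Menthae Herba high held 283, 246 and 224 CPM, 2.20-fold below vehicle (-1.14 ± 0.09, adjusted p = 8.07e-14). Soyo-san high followed at 338 and 352 CPM (-0.68 ± 0.10, adjusted p = 3.53e-06), Aucklandiae Radix high at 392 and 390 CPM (-0.50 ± 0.10, adjusted p = 0.000104) and Guibi-tang high at 445, 446 and 372 CPM (-0.39 ± 0.09, adjusted p = 0.00232). Polygalae Radix, which changed most other members, held 541 and 550 CPM of CRIM1 (-0.02 ± 0.10, adjusted p = 0.89). CRIM1 fell in 1 of 7 medium-dose comparisons, Menthae Herba (lost without any 1 of 6 libraries, adjusted p from 0.0845 to 0.14), and in 0 of 7 at the low dose by edgeR, where 2 had an unadjusted p under 0.05 (Menthae Herba at 0.0222 and Soyo-san at 0.0301) and DESeq2 called 0. With class as a covariate CRIM1 fell in 6 high-dose, 4 medium-dose and 4 low-dose comparisons, and in 7 of the 9 groups with both classes it was lower in class 2.

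The second question was which members moved with dose within an extract. Comparing high with low dose uses no vehicle library and stays within 1 library set. Class was not held fixed: in Polygalae Radix, Saposhnikoviae Radix and Saengmaek-san the high dose held more class 2 libraries than the low dose. Of 56 tests, 15 passed: 12 lower and 3 higher at the high dose. In Polygalae Radix ANKRD1 and AXL fell and LATS2 and AMOTL2 rose (29.1% of all genes fell and 27.9% rose). ANKRD1 changed by -1.68 ± 0.13 (adjusted p = 9e-15), AXL by -1.66 ± 0.06 (adjusted p = 7.4e-26) and LATS2 by 1.31 ± 0.09 (adjusted p = 3.96e-17). AMOTL2 was higher by 0.33 ± 0.07 (adjusted p = 0.000141), a call lost with only these 2 groups in the fit (0.31, adjusted p = 0.098). It was higher by 0.18 without replicate 2 of the high dose and by 0.17 in class 1 alone.

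In Aucklandiae Radix CCN1 rose and CRIM1 fell from the low to the high dose (9.01% of all genes rose and 9.25% fell). CCN1 went from 25.1 and 22.3 CPM to 38.1 and 35.5 CPM (0.63 ± 0.09, adjusted p = 6.48e-07). CRIM1 changed by -0.34 ± 0.11 (adjusted p = 0.0213), a call lost without any 1 of the 4 libraries, with adjusted p from 0.0637 to 0.138. The other 6 members did not pass, among them CCN2 at 0.21 ± 0.12, ANKRD1 at 0.30 ± 0.11 (adjusted p = 0.068) and LATS2 at 0.22 ± 0.09 (adjusted p = 0.0643). With class as a covariate ANKRD1 and LATS2 did pass, at the same log2 differences (adjusted p = 0.0439 and 0.0391).

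Menthae Herba had the most members that fell with dose, 5 of 8 (9.37% of all genes fell): CRIM1 by 0.93, AXL by 0.41, ANKRD1 by 0.40, AMOTL2 by 0.28 and LATS2 by 0.27 on the log2 scale. CRIM1 (adjusted p = 3.62e-11) and AXL (adjusted p = 5.9e-09) were the firmest of these. ANKRD1 was lost without replicate 2 of the high dose (adjusted p = 0.0508) or replicate 3 of the low dose (-0.27, adjusted p = 0.0727), and LATS2 without replicate 2 of the low dose (adjusted p = 0.0822) or with no filter on low counts (0.0535). All 9 Menthae Herba libraries are of class 1.

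Guibi-tang and Soyo-san had 2 members each. In Guibi-tang (1.95% of all genes fell) ANKRD1 changed by -0.62 ± 0.10 (adjusted p = 3.2e-05) and CRIM1 by -0.32 ± 0.09 (adjusted p = 0.0296), the last lost without any 1 of 3 libraries, with adjusted p from 0.138 to 0.292. By replicate number, CRIM1 held 445, 446 and 372 CPM at the high and 554, 542 and 480 CPM at the low dose of Guibi-tang. In Soyo-san (0.810% of all genes fell) LATS2 changed by -0.48 ± 0.09 (adjusted p = 0.00176) and CRIM1 by -0.46 ± 0.11 (adjusted p = 0.0183). Each of these was lost without 1 library: CRIM1 without any of the 4 and LATS2 without high replicate 1 or low replicate 2 (adjusted p = 0.0623 and 0.0651).

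In Saposhnikoviae Radix and Saengmaek-san 0 of 8 members differed between high and low dose by edgeR, where 0.0707% of all genes did in each. In each of these extracts 1 member had an unadjusted p under 0.05, AXL, at 0.13 ± 0.05 in both, and DESeq2 called 0. For Saposhnikoviae Radix the 8 log2 differences lay between -0.16 and 0.13. Against vehicle 5, 6 and 6 of the 8 members were called lower at its high, medium and low dose, as given above with the shares of all genes. Without 1 or more single libraries the calls of AXL and LATS2 were lost at its high dose. Those of CCN1, CCN2, ANKRD1 and LATS2 were so lost at its low dose, and the medium-dose calls were kept. CCN2 passed in 0 of 7 extracts by edgeR, with log2 differences from -0.28 to 0.21, and so did AJUBA, from -0.31 to 0.36. Each had 1 unadjusted p under 0.05, DESeq2 called 0 for both, and with class as a covariate CCN2 fell in 1 and AJUBA rose in 1.

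**Figure D3:**
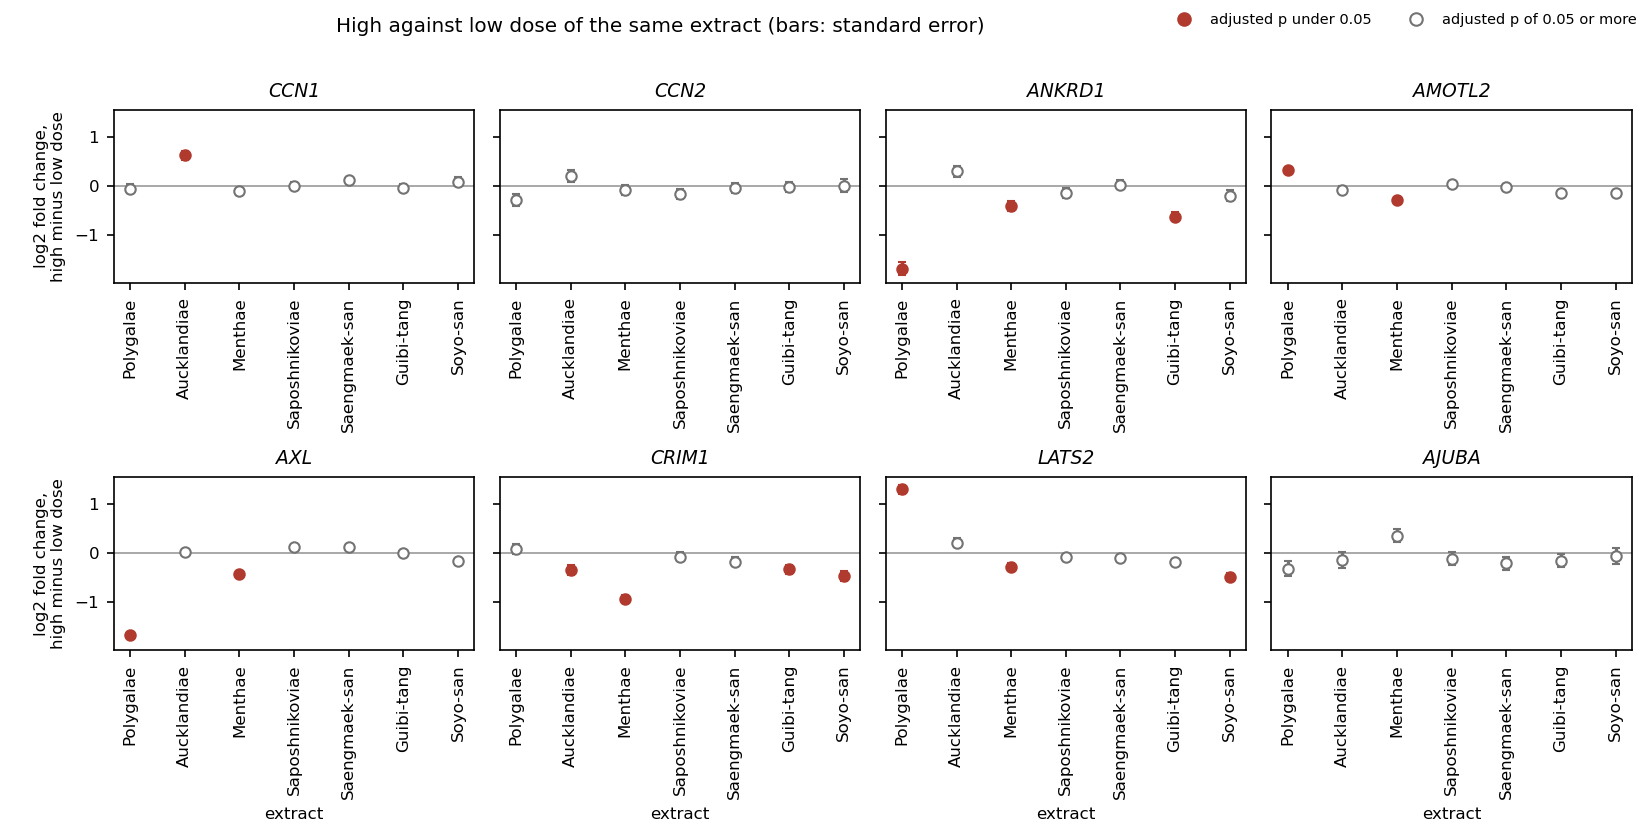
Log2 fold change of each member from low to high dose in 7 extracts (points) with the standard error (bars), filled where edgeR's adjusted p was under 0.05. ANKRD1 and AXL are lowest and LATS2 highest in Polygalae Radix, CRIM1 is filled in 4 extracts, and CCN2 and AJUBA are filled in none.

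The third question was whether 2 extracts of the same library set differed at the high dose. Polygalae Radix at 380 and Aucklandiae Radix at 370 µg/mL differed in 7 of 8 members, 4 lower in Polygalae Radix (29.9% of all genes) and 3 higher (28.1%). ANKRD1 was lower by 1.89 ± 0.13 and AXL by 1.71 ± 0.06 on the log2 scale, whereas LATS2 was higher by 1.04 ± 0.08. Menthae Herba and Saposhnikoviae Radix, both at 500 µg/mL, differed in 5, with 4 lower in Menthae Herba (9.81% of all genes) and 1 higher (6.16%). CRIM1 was lower by 0.99 ± 0.09 (adjusted p = 6.05e-12) and AJUBA higher by 0.56 ± 0.13 (adjusted p = 0.00174), or 0.44 ± 0.07 with class as a covariate. Between Guibi-tang and Saengmaek-san at 500 µg/mL, ANKRD1 passed (1.57% of all genes were lower in Guibi-tang), with 6.82 to 7.98 against 11.3 to 13.4 CPM (-0.77 ± 0.10, adjusted p = 1.02e-06). That call was lost in class 2 alone (-0.70, adjusted p = 0.138) and with only these 2 groups in the fit (-0.77, adjusted p = 0.137). AXL, at -0.14 ± 0.05 (adjusted p = 0.118), passed with class as a covariate (-0.16, adjusted p = 0.0288).

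Okbyeongpung-san had 1 library per dose and no test. All 8 members were below the vehicle range at each dose, as were 33.6% of all tested genes at the high, 34.9% at the medium and 33.7% at the low dose. ANKRD1 held 7.53 CPM at 500, 10.9 at 100 and 11.0 CPM at 20 µg/mL, log2 ratios to the vehicle mean of -0.98, -0.45 and -0.44 where the vehicle libraries had an SD of 0.084. LATS2 held 26.8, 32.8 and 32.5 CPM and AJUBA 81.8, 92.5 and 90.7 CPM in the same order. AMOTL2 (91.7, 97.0 and 102 CPM) and AXL (191, 202 and 203 CPM) were also lowest at the high dose, while CCN1 and CCN2 were lowest at the low dose (29.2 and 27.3 CPM).

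The members did not move as 1 block. Over the mean log2 CPM of the 25 groups, of which vehicle is 1, CCN1 and CCN2 had a Pearson correlation of 0.81, and 0.81 without Polygalae Radix high. ANKRD1 and AXL had 0.86, which came to 0.52 without that group, and AXL and LATS2 had -0.71, which came to 0.18. CRIM1 went with LATS2 (0.50, and 0.66 without that group) and not with CCN1 (-0.19) or CCN2 (-0.15). These values describe 25 groups in 5 library sets and carry no test.

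Among 11256 genes with a symbol and a mean log2 CPM of at least 2, the 3 most like CCN1 were CCN2 (0.81), EPHA2, an ephrin receptor kinase (0.81), and CAPN5, a calpain (0.75). The 3 most like CCN2 were EPHA2 (0.85), CCN1 (0.81) and STK40 (0.81). For both genes these values fell by at most 0.05 when Polygalae Radix high was left out. The 3 most like ANKRD1 were CAV1, the coat protein of caveolae (0.91), ALPK2 (0.90) and SMAP1 (0.90), at 0.72, 0.67 and 0.66 without that group.

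Among the coactivators and their partners, YAP1 fell in 1 of 7 high-dose comparisons, Soyo-san (-0.53 ± 0.12, adjusted p = 0.00139), and in Polygalae Radix its difference was 0.06 ± 0.12 (adjusted p = 0.678). WWTR1 fell in 3, Soyo-san (-0.41 ± 0.08), Menthae Herba (-0.26 ± 0.07) and Polygalae Radix (-0.20 ± 0.08, adjusted p = 0.0391). The last was lost without any 1 of 4 libraries (adjusted p from 0.0562 to 0.639), and with class as a covariate so were both it (-0.17, adjusted p = 0.0626) and the call in Menthae Herba (-0.19, adjusted p = 0.0554), whose libraries are of class 1. TEAD1 fell in 4: Soyo-san (-0.97 ± 0.15), Aucklandiae Radix (-0.50 ± 0.15), Saengmaek-san (-0.45 ± 0.13, adjusted p = 0.0462) and Menthae Herba (-0.39 ± 0.13), of which Soyo-san alone kept its call without each library in turn. TEAD2 and TEAD3 rose in Polygalae Radix, by 0.47 ± 0.12 and 0.64 ± 0.16. Without replicate 2 of that dose they came to 0.12 (adjusted p = 0.475) and 0.33 (adjusted p = 0.151). TEAD4 passed in 0 of 7 by edgeR, with 0 unadjusted p under 0.05 and 0 calls by DESeq2. VGLL4, a cofactor that competes with YAP for TEAD, rose in Polygalae Radix (0.43) and Aucklandiae Radix (0.23 ± 0.07, lost without replicate 2 of that dose at 0.18, adjusted p = 0.104) and fell in Menthae Herba (-0.65 ± 0.06). VGLL3, of the same family, fell in Soyo-san by 1.24 ± 0.18. Of the list of 9 factors 8 were tested, and 0 of 8 passed in Saposhnikoviae Radix and Guibi-tang high by edgeR, where 0 and 3 had an unadjusted p under 0.05 and DESeq2 called 0 and 1.

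The counts of these lists stand beside the shares of all genes that fell, given above, and of those that rose: 30.0% in Polygalae Radix, 18.3% in Aucklandiae Radix, 14.5% in Menthae Herba, 4.37% in Guibi-tang and 12.9% in Soyo-san high. Among 17 tested Hippo kinases and scaffolds, 13 fell in Soyo-san high and 0 rose, with TAOK1 at -1.13 ± 0.20 and LATS1 at -0.80 ± 0.12. In Polygalae Radix 6 of 17 rose, near the share of all genes, and 2 fell, led by WTIP, a scaffold of the AJUBA family (1.46 ± 0.10), and SAV1, the partner of the MST kinases (0.57 ± 0.07). In Aucklandiae Radix 2 rose and 5 fell and in Menthae Herba 2 rose and 6 fell, with WWC1, also known as KIBRA, first in both (-0.62 ± 0.07 and -0.52 ± 0.06). TAOK1 was next in Aucklandiae Radix (-0.56 ± 0.19, lost without either replicate of that dose, adjusted p = 0.109 and 0.123), and LIMD1, of the AJUBA family, in Menthae Herba (-0.40 ± 0.11). Saengmaek-san had 3 lower (LATS1 -0.40 ± 0.11 and FRMD6 -0.37 ± 0.11), Guibi-tang 2 lower (WWC1 -0.47 ± 0.06 and LATS1 -0.33 ± 0.10) and Saposhnikoviae Radix 0 in either direction by edgeR, where 4 had an unadjusted p under 0.05 and DESeq2 called 1. LATS1 was lost without any 1 of 4 libraries in Saengmaek-san and of 5 in Guibi-tang (adjusted p up to 0.226 and 0.277), and FRMD6 without any 1 of 5 (up to 0.197).

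A further list of 15 YAP and TEAD targets was split. In Polygalae Radix high, where 29.5% of all genes fell and 30.0% rose, 8 of 15 fell and 4 rose, with CCDC80 at -2.76 ± 0.08 and NT5E, the ecto-nucleotidase CD73, at -2.47 ± 0.10. In Aucklandiae Radix 6 fell and 2 rose (CCDC80 -1.66 ± 0.08 and IGFBP3 -0.90 ± 0.10), in Menthae Herba 9 fell and 2 rose (IGFBP3 -0.99 ± 0.09 and TGFB2 -0.95 ± 0.13), in Guibi-tang 5 fell and 1 rose (CCDC80 -0.62 ± 0.06 and TGFB2 -0.58 ± 0.13, the last lost in class 2 alone at adjusted p = 0.228) and in Soyo-san 6 fell and 1 rose (PTPN14 -0.87 ± 0.18 and TGFB2 -0.75 ± 0.15). NUAK2 (-0.26 ± 0.06, adjusted p = 0.0127) was the 1 of 15 to pass in Saengmaek-san, and it was lost without vehicle replicate 3 (adjusted p = 0.061). In Saposhnikoviae Radix high, where 5 of the 8 members had fallen, 0 of 15 passed by edgeR, 4 had an unadjusted p under 0.05 and DESeq2 called 1.

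The next list held SRF and its MRTF coactivators, which answer to actin as YAP does, and actin and smooth-muscle genes that they drive. Its genes fell in several extracts, though not always with ANKRD1. In Aucklandiae Radix high ANKRD1 did not pass, and in Saposhnikoviae Radix high ANKRD1 fell where 1 gene of the list did. Of 13 tested, 11 fell in Polygalae Radix high (median log2 fold change -1.57), led by FLNA, which crosslinks actin (-2.47 ± 0.10), and ACTA2, smooth-muscle actin (-2.30 ± 0.19), and SRF itself rose (0.44 ± 0.11). Menthae Herba had 11 lower (median -0.55), Guibi-tang 9 (median -0.44), led by TAGLN (-0.83 ± 0.13) and FLNA (-0.77 ± 0.08), and Aucklandiae Radix 9 lower and 1 higher (median -0.38). In Aucklandiae Radix and Menthae Herba the largest changes were in CNN1 (-1.89 ± 0.55 and -1.15 ± 0.45) and ACTG2 (-1.81 ± 0.70 and -1.71 ± 0.61), both below 1 CPM in every library and each lost without 1 or more single libraries (adjusted p up to 0.481). Soyo-san had 4 lower (MRTFB -0.85 ± 0.12 and VCL -0.40 ± 0.06), Saengmaek-san 3 (MRTFB -0.40 ± 0.10 and CNN2 -0.29 ± 0.07) and Saposhnikoviae Radix 1 (CNN2 -0.38 ± 0.07). In Saengmaek-san MRTFB and CNN2 were each lost without any 1 of 4 libraries (adjusted p up to 0.205 and 0.0725), and in Saposhnikoviae Radix CNN2 without replicate 1 of the high dose (0.0502). The summed epithelial markers, mostly KRT8 and KRT18, were also below vehicle in Polygalae Radix, Aucklandiae Radix (4098 to 4194 CPM), Menthae Herba (4123 to 4418 CPM) and Guibi-tang high. The part of these markers in the results was not tested.

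Relatives and ligands of the members changed in both directions. In Polygalae Radix, Aucklandiae Radix and Menthae Herba high their counts were near the shares of all genes given above. ANKRD2, the nearest relative of ANKRD1 in the list, fell in Polygalae Radix (-2.98 ± 0.26), Aucklandiae Radix (-1.71 ± 0.21), Guibi-tang (-1.17 ± 0.18) and Menthae Herba (-0.52 ± 0.17), at a vehicle level of 3.16 to 4.11 CPM. CCN4 fell in Polygalae Radix (-3.60 ± 0.49) and Aucklandiae Radix (-1.73 ± 0.36), from a vehicle level of 1.03 to 1.51 CPM. In Aucklandiae Radix CCN4 came to -2.66 without replicate 2 and -1.14 without replicate 3. The AXL ligand GAS6 rose in Polygalae Radix (0.61 ± 0.13) and Soyo-san (0.40 ± 0.13), and CCN5 fell in Polygalae Radix (-1.86 ± 0.13) and rose in Soyo-san (0.50 ± 0.11). CCN6, below 1 CPM in every library, rose in Menthae Herba (1.43 ± 0.47). The calls of GAS6 in Soyo-san, and of CCN6 and ANKRD2 in Menthae Herba, were lost without single libraries (adjusted p up to 0.109, 0.0845 and 0.122). Of 10 tested, 4 fell and 2 rose in Polygalae Radix, 2 fell and 1 rose in Aucklandiae Radix, 2 fell and 1 rose in Menthae Herba, 1 fell in Guibi-tang, 3 rose in Soyo-san and 0 passed in Saposhnikoviae Radix and Saengmaek-san by edgeR, where 1 and 2 had an unadjusted p under 0.05 and DESeq2 called 0.

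**Figure D4:**
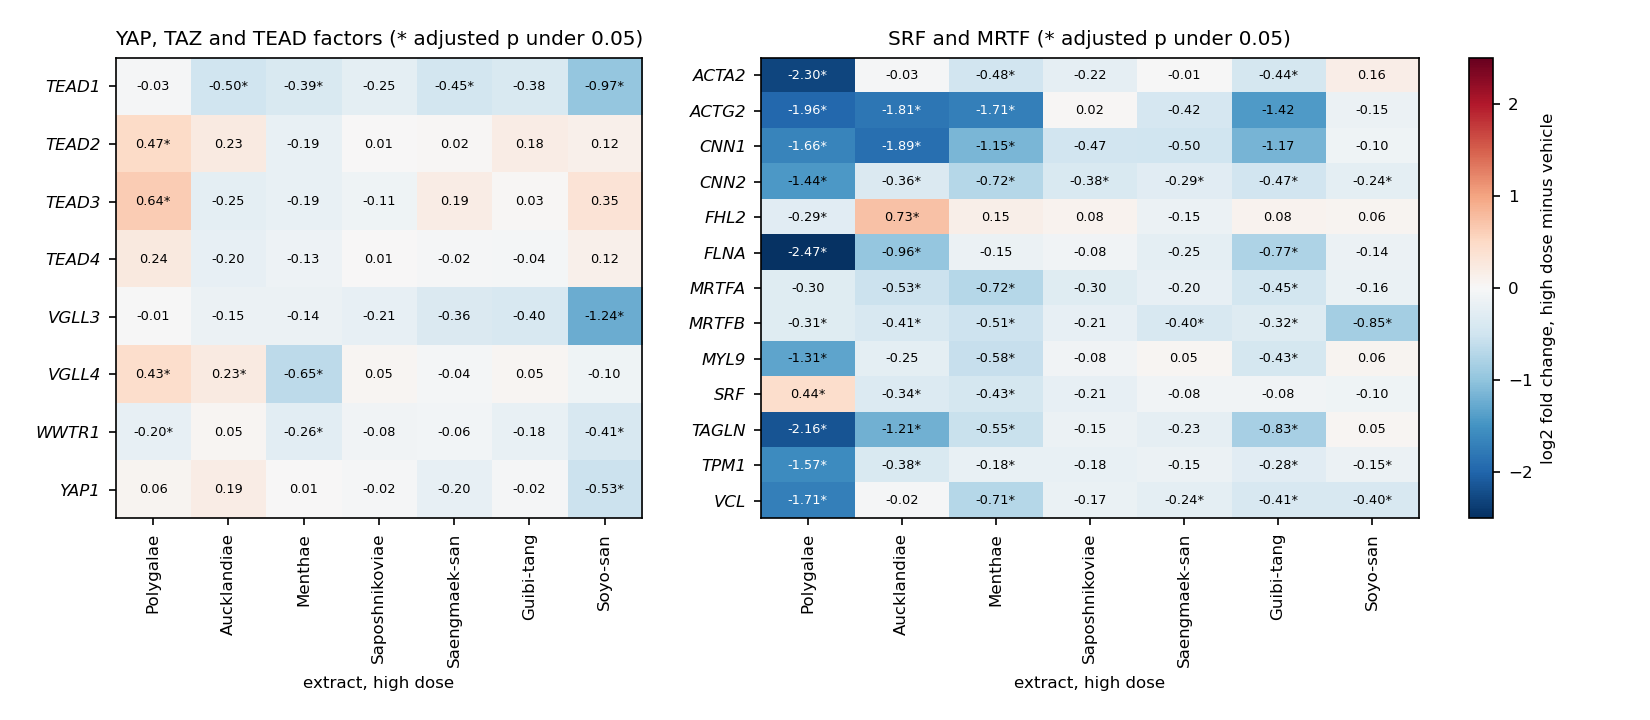
Log2 fold change at the high dose against vehicle for 8 YAP, TAZ and TEAD factors (left) and 13 SRF and MRTF genes (right) in 7 extracts, blue for lower and red for higher, with a star where edgeR's adjusted p was under 0.05. YAP1 is starred in Soyo-san alone, whereas the right panel is starred in 12 of 13 rows for Polygalae Radix.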

How the data were processed

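RNA of A549 cells was sequenced in 60 libraries of 25 groups. The authors deposited 1 table of RSEM expected counts (estimated counts, 9.95% of them with decimals) for 60675 genes. STAR 2.7.3a, RSEM 1.3.3, Trim Galore 0.6.5 and FastQC 0.11.9, with the GRCh38 (hg38) build, are listed in the submitters' processing notes. The annotation release was not stated in the labels. Reads shared by near-identical genes are split by estimation, and counts were rounded before testing. Groups came from the labels. Symbols came from a gene name table for 56558 identifiers and from GENCODE 29 for 497 more, and 18969 had none.

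With edgeR 4.0.16 (R 4.3.3) a quasi-likelihood model of group means was fitted to 57 libraries in 22 groups, after filterByExpr and TMM scaling, with 18396 genes and 35 residual degrees of freedom. Each of 31 contrasts was adjusted by Benjamini-Hochberg over all genes, two-sided, at 0.05. Okbyeongpung-san, with 1 library per dose, stayed outside the fit. Standard errors were taken as the size of the log2 difference over the root of its F statistic. CPM used TMM-scaled totals, and log2 CPM a prior count of 2. The fit was tested on simulated counts with the same spread for all genes and no difference between classes or library sets. That test cannot show how the fit handles such differences.

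All 8 members were named in every comparison. From each pathway list the genes past the threshold with the 2 largest changes were named, and YAP1, WWTR1 and TEAD1 to TEAD4 always. SRF, CD14, VGLL4 in Polygalae Radix, and GAS6 and CCN5 in Polygalae Radix were named outside this rule after their values were seen. For CCN1, CCN2 and ANKRD1 the 3 most correlated genes were named. The members and lists were chosen with earlier results of these data known. Alternatives were no filter, DESeq2 1.42.0 size factors and its Wald test, a replicate block, library class as a covariate or 1 class alone, the compared groups alone, and each library left out.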

Additional observations from a re-analysis of the deposited data

Results flagged for a closer look

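These high-dose values set 1 extract against the other of its library set, and are listed because the test of the difference itself passed in edgeR's fit. Polygalae Radix minus Aucklandiae Radix gave log2 differences of -0.61 for CCN1, -0.45 for CCN2, -1.89 for ANKRD1 and -1.71 for AXL, and of 0.45 for AMOTL2, 0.48 for CRIM1 and 1.04 for LATS2. These extracts were given at 380 and 370 µg/mL. Menthae Herba minus Saposhnikoviae Radix, both at 500 µg/mL, gave -0.36 for AMOTL2, -0.47 for AXL, -0.99 for CRIM1, -0.33 for LATS2 and 0.56 for AJUBA. Guibi-tang minus Saengmaek-san, both at 500 µg/mL, gave -0.77 for ANKRD1, which did not pass in class 2 alone (adjusted p = 0.138) or with only these 2 groups in the fit (adjusted p = 0.137).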

How the results depend on the processing

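Of 66 called member values (high dose against vehicle or low dose, and between extracts), all 66 kept direction and call under DESeq2 size factors, its Wald test and the replicate block, 65 with class as a covariate, 62 with no filter and 59 with only the 2 groups compared. Of 32 that class 2 alone could give, 21 kept the call, and of 26 in class 1 alone, 25; of 350 values with 1 library left out, 325 did. Of 68 calls at the medium and low dose, all 68 remained under DESeq2 size factors, its Wald test and the replicate block, 62 with class as a covariate, 55 with no filter and 66 with only the 2 groups compared, and 8 of 25 in class 2 alone, as did 275 of 381 values with 1 library left out. These 68 were added after the data were seen. Of the calls of pathway list genes, those that remained were 123 of 123 with DESeq2 size factors, 122 with the replicate block, 118 with class as a covariate, 112 with no filter, 115 of 120 by the Wald test, 92 of 115 with only the 2 groups compared, 53 of 62 in class 1 and 30 of 53 in class 2 alone, and 512 of 635 with 1 library left out. In none of these did a direction reverse. The cause of lost calls was not tested. Members called in Aucklandiae Radix high against vehicle went from 4 to 7 with only the 2 groups compared, and in Saposhnikoviae Radix high from 5 to 0 in class 2 alone. In Saengmaek-san high against vehicle the 3 calls became 5 with no filter, 5 with the replicate block, 6 with class as a covariate, 6 by DESeq2 and 0 with only the 2 groups compared. From low to high dose, the 2 calls in Aucklandiae Radix became 4 with class as a covariate, 4 in class 1 alone and 5 with only the 2 groups compared. The 2 in Guibi-tang became 0 in class 2 alone and 1 with only the 2 groups compared, and the 2 in Soyo-san became 1 in class 2 alone. With 1 library left out, calls ranged from 3 to 5 in Saposhnikoviae Radix and 3 to 4 in Saengmaek-san high against vehicle. From low to high dose they ranged from 1 to 1 in Aucklandiae Radix, 1 to 2 in Guibi-tang and 0 to 1 in Soyo-san. The calls together ranged from 25 to 36 at the medium and 22 to 33 at the low dose. The labels do not say that a replicate number marks a shared culture or day. Deviations of same-numbered libraries from their group means were little correlated in most pairs. In the set of Saengmaek-san and Guibi-tang, replicate 3 reached 0.414 (Guibi-tang high and low), 0.339 (Saengmaek-san high and low) and 0.308 (between them at the high dose). Replicate 1 gave 0.056, 0.022 and 0.006 in the same order. The main fit did not pair libraries. Low counts limit ACTG2, CNN1, CCN4 and CCN6, all at or below a few CPM.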
